A study of Mus musculus with 6 samples.

Results

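*Hox* genes encode homeodomain transcription factors and lie in the HoxA, HoxB, HoxC and HoxD clusters, in which genes at the same place of different clusters (paralogs, which share a number) are related. In hematopoiesis, genes of the HoxA and HoxB clusters are known to be active in hematopoietic stem cells (HSCs) and early progenitors and to be turned down as cells mature. MLL-containing complexes keep them active, Polycomb complexes repress them, and their proteins bind DNA together with the TALE cofactors of the MEIS and PBX families. The 10 genes described here are 5 of the HoxA cluster (*Hoxa3*, *Hoxa5*, *Hoxa7*, *Hoxa9*, and *Hoxa10*) and 5 of the HoxB cluster (*Hoxb2*, *Hoxb3*, *Hoxb4*, *Hoxb5*, and *Hoxb6*), taken by symbol from a table of 26264 genes.

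RNA-seq was performed on HSCs, sorted from bone marrow as LSK CD150+ CD48- cells, of untreated female mice that were 8 weeks old. One group was 3 *Irf1-/-* mice (B6.129S2-Irf1 tm1Mak/J), which lack the transcription factor IRF1 in the whole body, and the other was 3 C57Bl/6 wild-type (WT) mice. Because the deletion is not restricted to HSCs, loss of IRF1 within HSCs and in the cells around them cannot be told apart. Each library is 1 mouse and is given by its replicate number (2, 3 or 4). The comparison asks how the transcripts of these *Hox* genes differ between HSCs with and without IRF1. Values are normalized counts, that is, reads per gene divided by 1 size factor per library. *Irf1-/-* libraries held 43138521 (replicate 2), 57281017 (replicate 3), and 45129929 (replicate 4) reads on genes, and WT libraries 59658080, 45332573, and 43267486.

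Reads on *Irf1* itself gave normalized counts of 9267, 9524, and 9287 in *Irf1-/-* replicates 2, 3, and 4 and of 10122, 11120, and 12057.5 in the corresponding WT libraries. Each *Irf1-/-* value was lower than each WT value, but reads on the gene were still counted. The table gives 1 value per gene and no exons, so this value does not check the deleted part. Among markers of HSCs, *Kit* was the most abundant (83184.9 normalized counts in WT replicate 2), and *Slamf1*, which encodes CD150, had between 2848 and 3198 in WT HSCs and between 3412 and 3823 in *Irf1-/-* HSCs (adjusted *P* = 0.217, limma). *Cd48*, which the sort gates against, had between 257 and 359 in WT HSCs and between 279 and 431 in *Irf1-/-* HSCs.

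The test was limma on log2(normalized count + 1), run over the 17404 genes whose mean normalized count reached 10, a filter that all 10 *Hox* genes passed. A positive fold change is higher in *Irf1-/-* HSCs, and on this log2 scale the added 1 draws the fold changes of low genes toward 0, though some were still larger than in edgeR and DESeq2 (*Hoxb4*, 0.41 against 0.33 in both). Called here means that a gene had both an adjusted *P* under 0.05 and a log2 fold change of more than 0.58 in either direction. None of the 10 genes was called by limma in either direction, where 0.96% of all genes tested were called higher and 0.954% lower. At an unadjusted *P* under 0.05 limma gave 3 of the 10, *Hoxa3*, *Hoxa7*, and *Hoxa9*, all higher in *Irf1-/-* HSCs, where 8.38% of all genes tested were higher at this *P*. edgeR on the recovered reads called 0 of the 10 and gave 3 at an unadjusted *P* under 0.05. DESeq2 also gave 3, and called 1, *Hoxa3*, where it called 2.25% of all genes it tested higher. DESeq2 gives no adjusted *P* to genes with low counts, among them *Hoxb3* and *Hoxb4*, and so could not call them. In the further lists below, counts of genes at an unadjusted *P* under 0.05 take both directions. The share of all genes tested at this *P* in both directions is not given here. Whether those counts exceed it was not tested.

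In 4 of the 10 genes, *Hoxa3*, *Hoxa5*, *Hoxa7*, and *Hoxa9*, all 3 *Irf1-/-* libraries lay above all 3 WT libraries. Over all genes tested this held for 10.6%, and the opposite order, which none of the 10 genes showed, held for 9.27%. After median centring of the libraries *Hoxa5* overlapped and 3 genes remained apart. These genes are neighbours in 1 cluster and were measured in the same libraries, so they are not independent of each other. The median log2 fold change was 0.28 over the 5 HoxA genes and 0.25 over the 5 HoxB genes, beside −0.0028 over all genes tested. At a mean normalized count of at least 50, which removes *Hoxb3* and *Hoxb4*, the HoxB median turned to −0.12. All 5 HoxA fold changes and 3 of the 5 HoxB fold changes were positive, where 49.6% of all genes tested were positive. A fold change above the HoxA median was found in 19.4% of all genes tested.

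**Figure D1:**
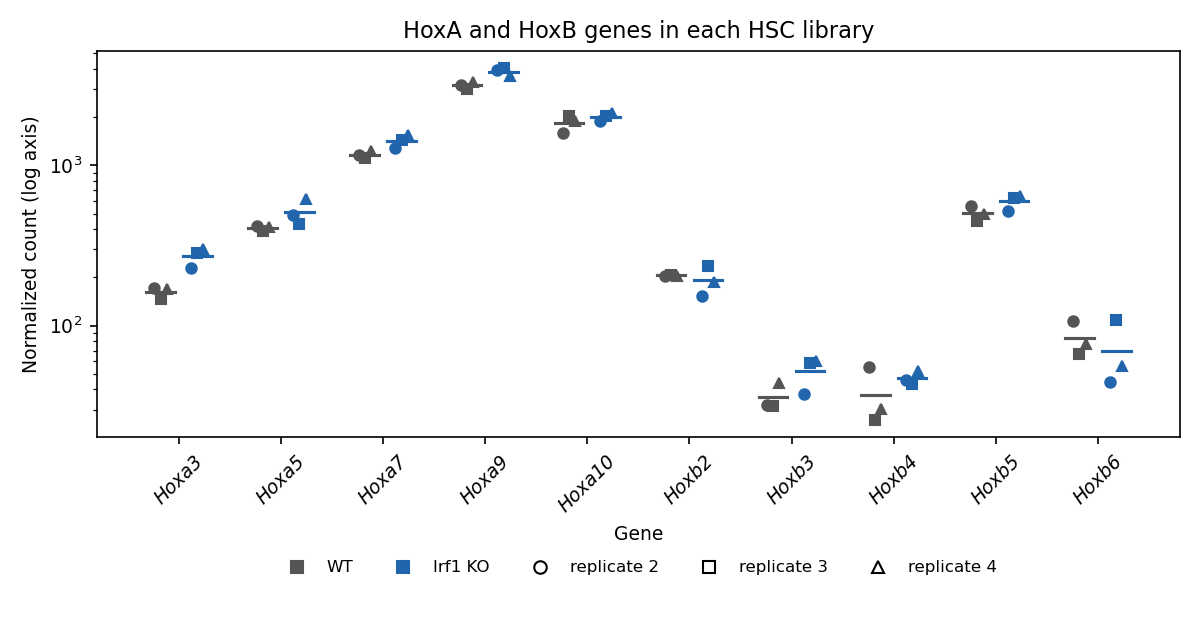
Normalized counts (log axis) of the 10 *Hox* genes in each WT (grey) and *Irf1-/-* (blue) HSC library, with a bar at the mean of 3 mice and a symbol for each replicate number. The blue points of *Hoxa3*, *Hoxa5*, *Hoxa7*, and *Hoxa9* lie above the grey ones, and those of the other 6 genes overlap with them.

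*Hoxa9* is the HoxA gene most closely tied to HSCs: its loss is known to impair repopulation by HSCs, and its overexpression with *Meis1* to cause myeloid leukemia. It had normalized counts of 3939, 4039.8, and 3596 in *Irf1-/-* replicates 2, 3, and 4 and of 3184, 3017, and 3313 in the corresponding WT libraries. The lowest *Irf1-/-* library, replicate 4, was above the highest WT library, also replicate 4. The mean was 3858 ± 233 (SD, *n* = 3 mice) in *Irf1-/-* and 3171 ± 149 in WT HSCs. The log2 fold change was 0.28 (SE 0.092, 95% interval 0.085 to 0.48), which was not called by limma (adjusted *P* = 0.124). In DESeq2 on the recovered reads the adjusted *P* was 0.0466, with a log2 fold change (0.28) under the threshold. Over all 16 alternatives the adjusted *P* of *Hoxa9* in limma, edgeR or DESeq2 ranged from 0.0466 to 0.349, and its log2 fold change from 0.25 to 0.33.

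*Hoxa7*, a target of MLL fusion proteins in leukemia, had 1277, 1441, and 1542 normalized counts in *Irf1-/-* replicates 2, 3, and 4. The corresponding WT libraries had 1155, 1115, and 1232. All *Irf1-/-* libraries were thus higher, with a gap of fewer than 50 normalized counts between the lowest of them and the highest WT library. The log2 fold change was 0.28 (SE 0.12, 95% interval 0.028 to 0.53) and was not called by limma (adjusted *P* = 0.245).

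*Hoxa10*, which is known to promote the self-renewal of early hematopoietic cells and to hold back their maturation when overexpressed, overlapped between genotypes. Its normalized counts were 1890.1, 2033, and 2130.2 in *Irf1-/-* replicates 2, 3, and 4 and 1589, 2049.9, and 1905 in the corresponding WT libraries. WT replicate 2 was the lowest of the 6 libraries, while WT replicate 3 was above *Irf1-/-* replicates 2 and 3. The log2 fold change of 0.13 (SE 0.12, 95% interval −0.12 to 0.38) was within the spread between mice (adjusted *P* = 0.653, limma). Without WT replicate 2 it was 0.03.

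*Hoxa3*, known for its role in the development of the thymus and the parathyroid, had the largest log2 fold change of the 10 genes. It had 228, 283, and 301 normalized counts in *Irf1-/-* replicates 2, 3, and 4, and 173, 147, and 170.0 in the corresponding WT libraries. The mean in *Irf1-/-* HSCs was 166% of that in WT HSCs, 271 ± 38.0 against 163 ± 14.4 (SD, *n* = 3 mice). All *Irf1-/-* libraries were above all WT libraries, and *Irf1-/-* replicate 2 was the lowest of them. The log2 fold change was 0.72 (SE 0.23, 95% interval 0.24 to 1.21), with an adjusted *P* of 0.109 in limma, and was not called. DESeq2 on the recovered reads called it, at 0.73 and an adjusted *P* of 0.0218, and this was the only one of 16 alternatives that did so. Over these alternatives its adjusted *P* in limma, edgeR or DESeq2 ranged from 0.0218 to 0.391, and the log2 fold change from 0.61 to 0.84.

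The *Hoxa3* gene overlaps 8 other genes in the gene order of RefSeq GRCm38.p6, all of which are in the table. Among them are *Hoxa4*, *Hoxa5*, and *Hoxa6* and the noncoding genes *Hoxaas2* and *Hoxaas3*. The paper states neither whether strand was used in the counting nor how reads on overlapping genes were assigned. Reads of *Hoxa3* and of genes that overlap it or run antisense to it therefore cannot be told apart. The value of *Hoxa3* is uncertain for that reason. The same holds for *Hoxa5*, which overlaps *Hoxa3* and *Hoxaas3*, and for *Hoxb3*, which overlaps *Hoxb4*, *Hoxb3os*, and *Mir10a*. It also holds for *Hoxb2* with *Hoxb3os*, and for *Hoxb5* and *Hoxb6*, which both overlap *Hoxb5os*. *Hoxa7* and *Hoxa9* overlap no other gene in this order.

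*Hoxa5*, which is known to favour myeloid over erythroid maturation when overexpressed, had 489, 432, and 619.7 normalized counts in *Irf1-/-* replicates 2, 3, and 4 and 419, 392, and 414 in the corresponding WT libraries. *Irf1-/-* replicate 4 stood well above the rest, and *Irf1-/-* replicate 3 was close to the highest WT library. The log2 fold change of 0.31 (SE 0.18, 95% interval −0.06 to 0.69) was not called by limma (adjusted *P* = 0.419), and without *Irf1-/-* replicate 4 it was 0.17.

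Of the HoxB genes, *Hoxb5* and *Hoxb4* have the best known ties to HSCs. A reporter at *Hoxb5* is known to mark long-term HSCs, and overexpression of *Hoxb4* to expand HSCs. *Hoxb5* had 523, 624, and 644 normalized counts in *Irf1-/-* replicates 2, 3, and 4 and 560.4, 452, and 498 in the corresponding WT libraries. WT replicate 2 was above *Irf1-/-* replicate 2, so the genotypes overlapped. The log2 fold change was 0.25 (SE 0.16, 95% interval −0.10 to 0.59) and was not called by limma (adjusted *P* = 0.510).

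*Hoxb4* was counted at few reads, between 23 and 67 per library. Its normalized counts were 45.8, 43.2, and 51.9 in *Irf1-/-* replicates 2, 3, and 4 and 55.1, 25.9, and 30.1 in the corresponding WT libraries. The highest library, WT replicate 2, and the lowest, WT replicate 3, were both WT. A difference in *Hoxb4* was not detectable: the log2 fold change of 0.41 (SE 0.46) had a 95% interval from −0.57 to 1.38, and its adjusted *P* was 0.743 in limma. Leaving out WT replicate 3 gave 0.20 and leaving out WT replicate 2 gave 0.73.

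The other HoxB genes also overlapped between genotypes. *Hoxb2*, known from hindbrain patterning, had between 204 and 208 normalized counts in the 3 WT libraries and 152, 237, and 187 in *Irf1-/-* replicates 2, 3, and 4. Its *Irf1-/-* libraries lay on both sides of the WT libraries, and the log2 fold change, −0.12 in limma (SE 0.24, adjusted *P* = 0.873), turned to 0.03 without *Irf1-/-* replicate 2. *Hoxb3*, which like *Hoxb4* has been studied as a regulator of HSC proliferation, was counted at 28 to 68 reads per library. Its normalized counts were between 37.3 and 60.2 in *Irf1-/-* and between 31.6 and 44.1 in WT HSCs, and its log2 fold change was 0.51 (SE 0.44, 95% interval −0.43 to 1.44, adjusted *P* = 0.647, limma). *Hoxb6*, known for expanding early myeloid cells when overexpressed, had between 44.8 and 108 normalized counts in *Irf1-/-* and between 66.5 and 107 in WT HSCs. In limma it was at −0.33 on the log2 scale (SE 0.40, adjusted *P* = 0.773), and leaving out *Irf1-/-* replicate 2 gave −0.07 and leaving out replicate 3 gave −0.69.

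Single mice took part in these values unevenly. *Irf1-/-* replicate 4 was the highest of the 6 libraries in 6 of the 10 genes, and WT replicate 3 was the lowest in 7. Summed normalized counts of the 5 HoxA genes were 7824, 8230.0, and 8189 in *Irf1-/-* replicates 2, 3, and 4 and 6519, 6720.0, and 7035 in the corresponding WT libraries. Those of the 5 HoxB genes were 804, 1071, and 999 in *Irf1-/-* and 959, 784, and 854 in WT HSCs. The HoxA sums did not overlap between genotypes and the HoxB sums did. Whether HoxA and HoxB genes differ from each other in their response was not tested.

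**Figure D2:**
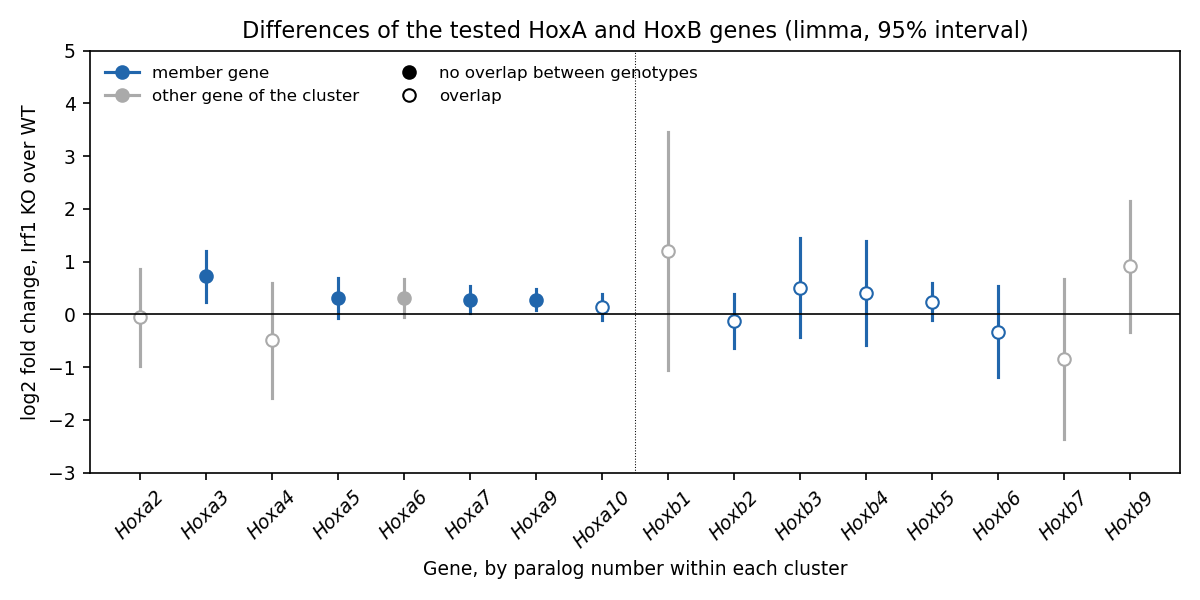
log2 fold change of *Irf1-/-* over WT HSCs (point) with its 95% interval from limma (line) for the 16 coding HoxA and HoxB genes tested, in the order of their paralog numbers within each cluster. Filled points are genes without overlap between genotypes, blue points are the 10 genes described, and grey points are other genes of the clusters. The intervals of *Hoxa3*, *Hoxa7*, and *Hoxa9* lie above 0 and all others include 0.

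The remaining coding genes of both clusters, 11 in number, were examined as neighbours. Of these, 6 passed the filter and none was called by limma, with no unadjusted *P* under 0.05. edgeR called none of them, nor did DESeq2, which gave an adjusted *P* for 2 of the 6. *Hoxa6*, between *Hoxa5* and *Hoxa7*, had 533, 529, and 631 normalized counts in *Irf1-/-* replicates 2, 3, and 4 and 487, 388, and 495 in the corresponding WT libraries. It was thus the only one of the 6 without overlap (log2 fold change 0.31, SE 0.17, adjusted *P* = 0.399, limma). *Hoxa4*, which lies within the span of *Hoxa3*, differed in sign (log2 fold change −0.49, SE 0.51, adjusted *P* = 0.721, limma), and that of *Hoxa2* was −0.05. Leaving out single libraries gave −0.81 to −0.19 for *Hoxa4* and −0.34 to 0.13 for *Hoxa2*. *Hoxb1* varied most between mice, from 2 reads in WT replicate 2 to 147 in WT replicate 4, while its *Irf1-/-* libraries had 79, 69, and 62 reads. The sign of its log2 fold change depended on the fit. It was 1.20 in limma (SE 1.05, 95% interval −1.06 to 3.45), −0.10 in edgeR, −0.11 in DESeq2, and −0.56 in limma without WT replicate 2. *Hoxb7* and *Hoxb9* had log2 fold changes of −0.84 and 0.92, with intervals that include 0. With single libraries left out these ranged from −1.24 to −0.07 and from 0.53 to 1.39.

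*Hoxa11*, *Hoxa13*, *Hoxb8*, and *Hoxb13* had a mean normalized count under 10, and *Hoxa13* had no read in any library. *Hoxa11*, the next coding gene after *Hoxa10*, had 1 read in 1 of the 6 libraries. Because a count of 0 allows up to 3 reads, and reads without molecular identifiers are not independent molecules, such floors cover counting error only. Of the 18 HoxC and HoxD genes in the table, 1 passed the filter. This gene, *Hoxc6*, had between 17.1 and 30.2 normalized counts in *Irf1-/-* and between 18.9 and 72.1 in WT HSCs and was not called by limma (log2 fold change −0.61, SE 0.60, adjusted *P* = 0.701). Without WT replicate 3, the highest library, it was −0.05.

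Levels of different genes were compared as reads per kb of the longest transcript, scaled to the same number of reads on genes in each library (RPKM). In WT HSCs *Hoxa9* had the highest level per length, 20.2 ± 1.88 (SD, *n* = 3 mice), followed by *Hoxa10* (14.7 ± 1.84), *Hoxa7* (11.8 ± 1.16), *Hoxa6* (5.42 ± 0.92), *Hoxa5* (4.46 ± 0.33), and *Hoxb5* (3.67 ± 0.47). The WT ranges of *Hoxa9* and *Hoxa10* did not overlap, whereas those of *Hoxa10* and *Hoxa7* overlapped, as did those of *Hoxa6* and *Hoxa5*. Within each WT library, however, *Hoxa9* was above *Hoxa10*, *Hoxa10* above *Hoxa7*, and *Hoxa6* above *Hoxa5*. *Hoxb5* was the HoxB gene with the highest level per length, 2.88 times that of *Hoxb2*, the next in order. The level per length of *Hoxb2* was 1.28 ± 0.053, of *Hoxa3* 1.08 ± 0.14, of *Hoxb6* 0.87 ± 0.23, of *Hoxb3* 0.38 ± 0.093, and of *Hoxb4* 0.18 ± 0.078. Of all tested genes with a length, 68.1% had a lower level per length than *Hoxa9* in WT HSCs, 39.9% a lower one than *Hoxb5*, and 9.72% a lower one than *Hoxb4*.

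In *Irf1-/-* HSCs the level per length was 25.2 ± 1.38 (SD, *n* = 3 mice) for *Hoxa9*, 16.6 ± 0.99 for *Hoxa10*, 14.7 ± 1.31 for *Hoxa7*, 4.47 ± 0.42 for *Hoxb5*, and 1.84 ± 0.24 for *Hoxa3*. With the mean length over a gene's transcripts in place of the longest, the WT level of *Hoxa9* was 50.4, that of *Hoxa3* was 2.20, and *Hoxa7* (17.6) and *Hoxa10* (17.3) changed places. *Hoxa3* was then above *Hoxb2*, *Hoxa4* and *Hoxb3* were above *Hoxa2*, and *Hoxb9* was above *Hoxb4*.

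**Figure D3:**
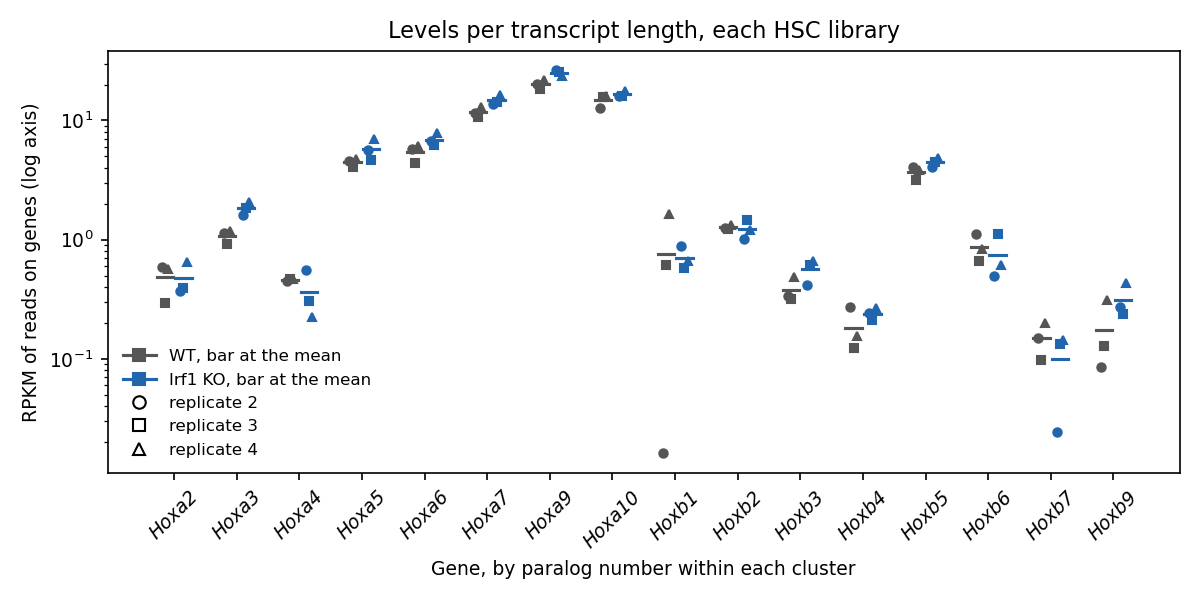
Reads per kb of the longest transcript, scaled to the reads on genes of each library (RPKM, log axis), for the 16 coding HoxA and HoxB genes tested, in each WT (grey) and *Irf1-/-* (blue) HSC library, with a bar at the mean of 3 mice. HoxA levels are highest at *Hoxa9*, and *Hoxb5* is the highest HoxB gene. *Hoxb1* spans the widest range among WT libraries.

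Noncoding genes of the clusters were counted at low levels. Of 11 such genes listed, 10 were in the table, 6 passed the filter, and none was called by limma, with no unadjusted *P* under 0.05. edgeR and DESeq2 also called none, with an adjusted *P* from DESeq2 for 2 of the 6. *Mir196b*, the miRNA gene between *Hoxa9* and *Hoxa10*, had 128, 95.9, and 135 normalized counts in *Irf1-/-* replicates 2, 3, and 4 and 92.2, 82.3, and 91.4 in the corresponding WT libraries. It was the only one of the 6 without overlap between genotypes (log2 fold change 0.41, SE 0.30, adjusted *P* = 0.567, limma). Reads of this cDNA protocol on a miRNA gene come from longer transcripts and do not measure the mature miRNA. By the mean of the 3 mice, *Hoxb5os* was the most abundant of those listed in WT HSCs. In *Irf1-/-* HSCs *Mir196b* was higher (119.6 against 106.3 for *Hoxb5os*). *Hoxb5os* had between 76.8 and 125 normalized counts in *Irf1-/-* and between 100.3 and 134 in WT HSCs (log2 fold change −0.14, adjusted *P* = 0.895, limma). This fold change was 0.08 without *Irf1-/-* replicate 2 and −0.29 after quantile normalization of the libraries. *Hotairm1* (−0.02), *Hoxaas2* (0.72), *Hoxaas3* (0.45), and *Hoxb3os* (0.37) had log2 fold changes within the spread between mice. Without WT replicate 3, the lowest library of each, those of *Hoxaas2* and *Hoxaas3* were 0.07 and 0.15, and those of *Hoxb3os* and *Hotairm1* were −0.17 and −0.39. *Mira*, a noncoding gene between *Hoxa6* and *Hoxa7* that is not among those listed, was above *Hoxb5os* in each library and overlapped between genotypes (log2 fold change 0.28, adjusted *P* = 0.649, limma). *Mir10a* and *Mir196a-1*, in the HoxB cluster, had no counted read in any library. *Mir10a* overlaps *Hoxb3*, and the paper does not state how reads on overlapping genes were assigned. Its lack of counted reads therefore does not show that no transcript covered it.

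The miR-196 and miR-10 families are encoded within *Hox* clusters, and miR-196 is known to target *Hox* transcripts, among them *Hoxb8*. The mature 5p arms encoded in the HoxA and HoxB clusters are shown to compare their seeds, bases 2 to 8, in capitals (RefSeq GRCm38.p6). miR-196b-5p and miR-196a-5p share a seed, and miR-10a-5p has another.
miR-196b-5p (chr6:52230129-52230150, minus strand): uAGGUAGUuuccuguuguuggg
miR-196a-5p (chr11:96265187-96265208, plus strand): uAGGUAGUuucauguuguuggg
miR-10a-5p (chr11:96317186-96317208, plus strand): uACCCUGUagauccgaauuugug

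Promoter windows of RefSeq GRCm38.p6, from 250 bases before to 50 bases after a gene's start, were available for 6 of the 10 genes, *Hoxa3*, *Hoxa5*, *Hoxa7*, *Hoxa9*, *Hoxa10*, and *Hoxb4*, in 7 windows. GAAANNGAA, a repeat of the half-site that interferon regulatory factors bind, was searched on both strands. It was found in 1 of the 7 windows, that of *Hoxa9*, and in 8.56% of all 32851 windows. TGATNNAT, a motif of PBX-HOX pairs, was in none of the 7 windows and in 8.85% of all windows. A match is a description of the sequence and not a binding site. The 250 bases before the start of *Hoxa9*, with its match, and of *Hoxa3*, the gene with the largest fold change, are shown 5′ to 3′ on the minus strand, where capitals mark the match to GAAANNGAA on the opposite strand, which begins 144 bases before the start.
Hoxa9 (chr6:52227371-52227620, minus strand): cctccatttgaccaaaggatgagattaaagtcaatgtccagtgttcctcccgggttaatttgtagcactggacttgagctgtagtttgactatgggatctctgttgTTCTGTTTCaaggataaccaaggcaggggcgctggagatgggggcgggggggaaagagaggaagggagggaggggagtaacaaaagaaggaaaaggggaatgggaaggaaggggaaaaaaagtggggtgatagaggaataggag
Hoxa3 (chr6:52213068-52213317, minus strand): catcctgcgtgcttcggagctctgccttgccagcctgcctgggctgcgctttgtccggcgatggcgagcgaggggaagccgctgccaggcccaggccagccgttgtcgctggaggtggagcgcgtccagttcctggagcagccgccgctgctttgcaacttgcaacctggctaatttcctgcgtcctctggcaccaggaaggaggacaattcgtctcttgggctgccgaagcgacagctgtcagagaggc

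In the gene order of GRCm38.p6 the HoxA cluster is on chromosome 6 and the HoxB cluster on chromosome 11, which also holds *Irf1*, with 611 tested genes between *Irf1* and the cluster. Of the 3 nearest tested coding genes on each side of each cluster, none was called by limma, edgeR or DESeq2 (10 of the 12 with an adjusted *P* in DESeq2), and 2 had an unadjusted *P* under 0.05 in limma. Next to the HoxA cluster, the log2 fold changes were −0.09 for *Skap2* (adjusted *P* = 0.681, limma) and 0.05 for *Hibadh* (adjusted *P* = 0.830, limma), and the genotypes overlapped in both. Further out on the side of *Skap2*, *Snx10* (−0.29, adjusted *P* = 0.0783, limma) and *Cbx3* (−0.20, adjusted *P* = 0.501, limma) had each *Irf1-/-* value below each WT value. *Skap1*, next to the HoxB cluster on the side of *Hoxb1*, had 150.3, 172, and 172 normalized counts in *Irf1-/-* replicates 2, 3, and 4 and 110.3, 68.7, and 111 in the corresponding WT libraries. Its log2 fold change was 0.80 (SE 0.29, adjusted *P* = 0.178, limma), without overlap between genotypes.

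TALE cofactors, the homeodomain proteins that bind DNA with HOX proteins, were all tested (9 of 9). None was called by limma, where 1 had an unadjusted *P* under 0.05, nor by edgeR or DESeq2, which gave *Pknox2* no adjusted *P*. *Meis1*, the most abundant, had 28077, 28483, and 28401 normalized counts in *Irf1-/-* replicates 2, 3, and 4 and 30487, 29474, and 26048 in the corresponding WT libraries. The genotypes overlapped (log2 fold change −0.01, SE 0.089, adjusted *P* = 0.967, limma). *Pbx3* (0.16) and *Pknox2* (−0.60) overlapped between genotypes.

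Of 18 activators on the side of MLL and trithorax, 15 passed the filter and none was called by limma, where 2 had an unadjusted *P* under 0.05. edgeR and DESeq2 called none. *Men1*, which encodes the MLL partner menin, was the most abundant (log2 fold change 0.07, adjusted *P* = 0.808, limma). *Mllt3*, a component of complexes that promote elongation and a known regulator of HSC maintenance, had 6518, 6929, and 8034 normalized counts in *Irf1-/-* replicates 2, 3, and 4 and 6282, 5315, and 5551 in the corresponding WT libraries. Its libraries did not overlap, and the log2 fold change was 0.32 (SE 0.10, adjusted *P* = 0.108, limma). *Psip1*, which encodes the MLL-menin tether LEDGF, was at −0.25 on the log2 scale (adjusted *P* = 0.227, limma), and *Ash2l* at −0.19 (adjusted *P* = 0.325, limma). The *Cdx1*, *Cdx2*, and *Cdx4* genes, known activators of *Hox* genes in the embryo, had at most 7.53 normalized counts in any library.

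Of the 13 repressors on the side of PRC1, all were tested and none was called by limma, where 2 had an unadjusted *P* under 0.05 and 1 an adjusted *P* under 0.05, beside 3.22% of all genes tested. edgeR and DESeq2 called none. This gene was *Cbx7*, which encodes a Polycomb subunit known to favour HSC self-renewal. It had 4438, 4046, and 4415 normalized counts in *Irf1-/-* replicates 2, 3, and 4 and 3246, 3281, and 3441 in the corresponding WT libraries. All *Irf1-/-* libraries were higher, but the log2 fold change was 0.37 (SE 0.088, adjusted *P* = 0.0362, limma), under the threshold of 0.58. *Cbx6*, the most abundant of the list, was also without overlap (0.26, SE 0.084, adjusted *P* = 0.125, limma). *Pcgf2* (0.24), *Cbx8* (−0.15), and *Phc2* (−0.14) overlapped between genotypes.

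Of 11 genes described as targets of HOXA9 and MEIS1, 10 were tested, and 1 was called higher and none lower by limma. *Flt3*, which encodes a cytokine receptor of multipotent progenitors, had 3442, 4476, and 3460.0 normalized counts in *Irf1-/-* replicates 2, 3, and 4 and 2656, 1730, and 2865 in the corresponding WT libraries. Its libraries did not overlap, and it rose by 0.67 on the log2 scale (SE 0.16, adjusted *P* = 0.0407, limma). *Flt3* did not keep its call when any of the 3 *Irf1-/-* libraries or WT replicate 3 was left out (adjusted *P* up to 0.127, limma), nor when limma was run without the trend (adjusted *P* = 0.358). *Bcl2*, which encodes an inhibitor of apoptosis, was lower in all *Irf1-/-* libraries (log2 fold change −0.41, SE 0.094, adjusted *P* = 0.0291, limma), under the threshold on the fold change. *Lmo2*, the most abundant, had a log2 fold change of −0.06, and those of *Pim1* (0.29), *Sox4* (0.19), and *Myb* (0.18) were not called.

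Since *Hox* genes are known to fall as HSCs mature, markers of HSCs and of other cells were set beside them. Of 10 HSC markers all were tested, and *Fgd5* was called higher by limma (log2 fold change 0.83, adjusted *P* = 9.13e-05), a call made in all fits but that without the trend in limma. *Procr* was higher (0.52, adjusted *P* = 0.0112, limma) and *Ly6a*, which encodes Sca-1, lower (−0.43, adjusted *P* = 0.0245, limma), both under the threshold on the fold change, which *Procr* passed without WT replicate 2. The log2 fold changes of *Mecom* (0.30), *Tek* (0.28), *Hlf* (0.25), and *Kit* (−0.01) were not called. Summed normalized counts of the list were 206409, 229972, and 209432 in *Irf1-/-* replicates 2, 3, and 4 and 206577, 212111, and 192335 in the corresponding WT libraries, which overlapped. In bulk RNA, a different share of cells of a type and a different amount of RNA per cell cannot be told apart.

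Of 20 genes of cycling cells all had negative fold changes, 13 had each *Irf1-/-* value below each WT value, and 3, *Mki67* (log2 fold change −0.67), *Top2a* (−0.77), and *Aurkb* (−0.63), were called lower by limma (adjusted *P* of 0.0427, 0.0177, and 0.0368). Leaving out *Irf1-/-* replicate 4, WT replicate 2, or WT replicate 3 removed each of these calls (adjusted *P* up to 0.168, limma), as did limma without the trend (adjusted *P* up to 0.365). That of *Mki67* also went with *Irf1-/-* replicate 2, and that of *Aurkb* with *Irf1-/-* replicate 3. *Cdk1* (−0.50) and *Tyms* (−0.46) had an adjusted *P* under 0.05 in limma without passing the threshold on the fold change. The log2 fold changes of *Birc5* (−0.58), *Ccna2* (−0.57), and *Ccnb2* (−0.53) were not called, though these genes and *Cdk1* were each called in at least 1 alternative. Summed normalized counts of the 20 genes, led by *Mcm6*, were 197744, 204423, and 165916 in *Irf1-/-* replicates 2, 3, and 4 and 268014, 295600.0, and 214127 in the corresponding WT libraries, without overlap. *Irf1-/-* replicate 4, the library in which 6 of the 10 *Hox* genes were highest, had the lowest sum, and WT replicate 3, in which 7 were lowest, had the highest. By summed counts, the HoxA genes were highest in *Irf1-/-* replicate 3 (8230) and lowest in WT replicate 2 (6519). The HoxB sum was highest in *Irf1-/-* replicate 3 (1071) and lowest in WT replicate 3 (784). The part of cycling cells in the HoxA values was not tested.

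Of 6 megakaryocyte markers, *Pf4* (log2 fold change −1.11) and *Gp1bb* (−0.90) were called lower by limma (adjusted *P* of 0.00334 and 0.00320), calls lost without the trend in limma, and all 6 fold changes were negative. Their sums, led by *Itga2b*, were 51516, 33795, and 46280 normalized counts in *Irf1-/-* replicates 2, 3, and 4 and 58848, 71525, and 56822 in the corresponding WT libraries, without overlap. *Itga2b* itself was lower in all *Irf1-/-* libraries (log2 fold change −0.56, adjusted *P* = 0.0922, limma). It was called lower without WT replicate 4 (−0.67, adjusted *P* = 0.0449, limma). Of 6 erythroid markers 4 were tested, and *Klf1* was called lower (−0.72, adjusted *P* = 0.0361, limma), a call that went when any of replicates 2 and 3 of either genotype was left out or the trend was not used. The hemoglobin genes *Hba-a1* and *Hbb-bs* had no counted read in any library. The paper does not state how reads that align to several genes were handled. The lack of counted reads therefore does not show that hemoglobin transcripts were absent. Erythroid sums, led by *Epor*, were 4327, 3089, and 3962 in *Irf1-/-* and 5230, 5367, and 4286 in WT HSCs, which overlapped. The part of these lineages in the *Hox* values was not tested.

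Of 6 markers of multipotent and granulocyte-monocyte-lymphoid progenitors, *Flt3*, the most abundant, was called higher, and *Satb1* had a log2 fold change of 0.58 just under the threshold, with an adjusted *P* under 0.05 in limma. Those of *Il7r* (0.88) and *Dntt* (−0.27) were not called. Their sums were 5882, 6374, and 5939 normalized counts in *Irf1-/-* replicates 2, 3, and 4 and 4923, 4263, and 5613 in the corresponding WT libraries, without overlap. Of 6 myeloid progenitor markers none was called by limma, edgeR or DESeq2 (4 of the 6 with an adjusted *P* in DESeq2), and in limma *Prtn3* had the only unadjusted *P* under 0.05 (log2 fold change 0.53, adjusted *P* = 0.0334). *Prtn3* did not overlap between genotypes and was called higher by limma when WT replicate 2 or 4 was left out. Over all alternatives its adjusted *P* in limma, edgeR or DESeq2 ranged from 0.00158 to 0.330. *Lyz2* was the most abundant. *Elane* (0.63), *Ctsg* (0.43), and *Mpo* (0.30) overlapped between genotypes. Their sums were 33607, 39595, and 37036 in *Irf1-/-* and 29783, 34320, and 32790 in WT HSCs, which overlapped. The part of these progenitors in the *Hox* values was not tested.

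Of 6 B cell markers 5 were tested and none was called by limma, edgeR or DESeq2 (1 of the 5 with an adjusted *P* in DESeq2), with no unadjusted *P* under 0.05. *Cd79b* was the most abundant, and *Pax5* had at most 18.3 normalized counts in any library. Of 6 T and NK cell markers 4 were tested and none was called by limma, edgeR or DESeq2 (3 of the 4 with an adjusted *P* in DESeq2), and *Nkg7*, the most abundant, had the only unadjusted *P* under 0.05 in limma (log2 fold change −0.34, adjusted *P* = 0.0894). *Cd3e* had at most 7.89 normalized counts in any library and *Cd8a* at most 2.59, so that *Pax5*, *Cd3e*, and *Cd8a* were near 0 in both genotypes. Sums were 3103, 2873, and 3041 for B cell markers in *Irf1-/-* replicates 2, 3, and 4 and 2772, 3048, and 2667 in the corresponding WT libraries. For T and NK cell markers they were 3117, 2894, and 3822 in *Irf1-/-* and 3839, 3567, and 3760 in WT HSCs, and both lists overlapped between genotypes.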

How the data were processed

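RNA was amplified with the SMART-Seq v4 kit and made into Nextera XT libraries. On Galaxy, the authors used Trim Galore! for trimming, HISAT2 for alignment, and Htseq-count for counting. The deposited signal of a gene is its count after division by the size factor that DESeq2 gave the library. The submitters' processing notes name the build mm39. The strand setting of the counting is not given in the sources used here. The labels number the libraries of a genotype in 2 ways, and the numbers 2, 3, and 4 were used. No pair of libraries of a genotype agreed within sampling noise (chi-square per gene of at least 16.0), as 1 library deposited under 2 labels would.

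All values (100%, within 0.01 reads) came out as whole reads, so reads were recovered. The main test was limma 3.58.1 under R 4.3.3 (intensity trend, Benjamini-Hochberg adjustment) on log2(normalized count + 1), since the deposited values are not raw counts. On the recovered reads, edgeR 4.0.16 called 162 genes higher and 161 lower, and DESeq2 1.42.0 called 295 and 209. Tests were tried on simulated data. Alternatives covered the pseudocount, the filter, the trend, the scaling, the threshold, the replicate block, the transcript length, and each library left out. Lengths came from GENCODE vM1 transcripts by symbol, and gene order from RefSeq GRCm38.p6. Figures were drawn with matplotlib.

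Named are *Irf1*, the 10 *Hox* genes, and every other tested gene of the *Hox* lists. In each further list, genes with an adjusted *P* under 0.05, the most abundant gene, up to 3 more with the largest fold changes, and defining markers near 0 are named. Some genes that meet this rule were left out. The other named neighbours and markers were chosen after their values were seen. The members and lists were chosen with earlier results of these data known.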

Additional observations from a re-analysis of the deposited data

How the results depend on the processing

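None of the 10 *Hox* genes was called higher or lower by limma or edgeR under any alternative run, and DESeq2 called 1 higher. The direction of 9 of the 10 fold changes held in all of them, and *Hoxb2* changed sign without *Irf1-/-* replicate 2. Of 102 genes followed, 18 changed sign in at least 1 alternative, none of them called by limma. The HoxA median log2 fold change stayed between 0.22 and 0.34, and the HoxB median between 0.17 and 0.34 with single libraries left out. At a mean normalized count of at least 50, which removes *Hoxb3* and *Hoxb4*, the HoxB median was −0.12. Over all genes, counts called higher (167) and lower (166) were 7 and 33 without the trend in limma, and 301 and 260 without the threshold on the fold change. DESeq2 called 295 higher. With single libraries left out they ranged from 83 to 304 and from 105 to 265. With the mean transcript length, WT levels per length were 50.4 for *Hoxa9*, 17.3 for *Hoxa10*, 17.6 for *Hoxa7*, 2.20 for *Hoxa3*, 0.65 for *Hoxa4*, and 0.49 for *Hoxb3*. Except where fewer genes or libraries or another length or threshold enter by construction, the cause was not tested.

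With the replicate number as a block (replicate block), 219 genes were called higher and 196 lower, and no *Hox* gene described was called. The correlation of deviations between libraries of the same number was −0.09 for replicate 2, 0.25 for replicate 3, and 0.15 for replicate 4. The labels tie these libraries by number only, and whether they share anything else was not tested. *Hoxb3*, *Hoxb4*, and *Hoxb6* had 130 reads or fewer in each library, and the part of depth in their wide intervals was not tested.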
